A study of Homo sapiens with 32 samples.

Results

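The human gene CHTOP lies at chr1:153606458-153618782 on the plus strand of GRCh37 (hg19), spans 12325 bases and was the 1 gene described here of 63793 annotated genes. Its members were all deduplicated iCLIP tags on its strand within that span, 435 in the 12 libraries, and each was placed in an exon, an intron or the 3′ UTR of the canonical transcript CHTOP-204. In iCLIP, ultraviolet light crosslinks a protein to RNA in living cells, and cDNA synthesis on the purified RNA often ends next to the contact, so that a tag marks 1 cDNA and its crosslinked base. Chtop is an RNA-binding subunit of TREX, the complex that loads mRNA for nuclear export, and it hands RNA to the export receptor Nxf1 together with the adaptor Alyref. The CHTOP transcript is also a target of its own product: CHTOP is known to regulate its own splicing through intron retention, a common form of control among genes for RNA-binding proteins.

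FLAG-tagged Alyref, Chtop or Nxf1 was induced in FlpIn-293 cells, which the sample labels also give as FlipIn HEK293T, an established cell line of human embryonic kidney origin in which transgenes enter 1 recombination site, and FLAG alone served as the Control. The inducer tetracycline was present for 48 h, at 10 ng/mL in the Alyref and Chtop lines and 5 ng/mL in the Nxf1 line. The labels give no dose for the Control. Each group had 3 libraries, and nothing in the labels says that these came from separate cultures, so that p-values measure the spread between these libraries. Replicate number coincided with the set of sequencing lanes, and each set held all 4 groups. In the Chtop line the cells carried a tagged Chtop coding sequence beside the CHTOP gene, so that sense tags in coding exons from the transgene and from the gene cannot be told apart in that line.

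The libraries held 7017 to 631704 tags, and replicate 1 was the shallowest of each group. CHTOP received 4, 62 and 68 tags in Alyref libraries 1 to 3, 6, 135 and 125 in Chtop, 3, 20 and 9 in Nxf1, and 0, 1 and 2 in Control. These 435 tags fell on 388 bases, 349 of which had 1 tag, and 36 bases had tags in 2 or more libraries. CHTOP was thus sampled sparsely, and intervals and detection floors given here cover counting error only.

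The 5 bases with the most tags over the 12 libraries are shown with 10 bases on each side, on the plus strand of GRCh37, because they are among the most often recovered contacts in the gene. Of the gene's bases 2 had 4 tags and 4 had 3, so that 1 further base tied with the last of these and was left out by the order of libraries and position. The capital marks the crosslinked base. In the labels, first and second give the order in this list and not the place within the part.
Exon 1, 5′ UTR, chr1:153606547-153606567: ggccattttgTtttggacacc
Intron 2, first base, chr1:153609385-153609405: tccttttcacAtttttttacg
Exon 6, 3′ UTR, first base, chr1:153618005-153618025: agacttctctTtgaacacaaa
Exon 6, 3′ UTR, second base, chr1:153618268-153618288: cacattgataAtttagtaaac
Intron 2, second base, chr1:153609386-153609406: ccttttcacaTttttttacgt

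The exon 1 base, 16 nt into the annotated 5′ UTR, had 4 tags in 4 libraries (1 in Alyref 2 and 1 in each Chtop library). The neighbouring bases of intron 2, 266 and 267 nt after its start, had 4 and 3 tags, of which Chtop 3 gave 3 and 2. The bases of the 3′ UTR, 273 and 536 nt into the annotated 3′ UTR, each had 3 tags in 3 libraries. Every one of the 5 sites thus rested on at most 4 tags. The Control had 0 tags at each but only 3 on the whole gene, so these values of 0 do not set the sites apart. The 30-nt window at chr1:153609380-153609409, chosen after its values were seen, held 23 tags. It was the first of 4 overlapping windows with the same 23 tags, shifted along the untagged bases at its start. In its sequence the capitals mark the 15 bases with tags.
Intron 2 window: actCttcCTTttcacATtTTTTTaCgTTgA
The window had 16 T and 7 C among its 30 bases. Its tags came from 6 libraries, with 0, 2 and 1 in Alyref 1 to 3, 0, 3 and 14 in Chtop, 0, 1 and 2 in Nxf1 and 0 in Control. Chtop 3 alone gave 14 of the 23, against 3 in the deeper library Chtop 2.

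CHTOP RNA was recovered most densely with its own product. The level of CHTOP was 128, 251 and 291 tags per 1000000 library tags (CPM) in Chtop libraries 1 to 3 (223 ± 85.1, SD, n = 3) and 49.2, 98.1 and 113 CPM in Alyref (86.7 ± 33.3, n = 3). It was 369, 168 and 50.2 CPM in Nxf1 (196 ± 161, n = 3) and 0, 21.4 and 54.1 CPM in Control (25.2 ± 27.2, n = 3). The Chtop libraries all lay above the Alyref and the Control libraries. The Nxf1 libraries overlapped every other group, and the value of 369 CPM came from 3 tags (95% exact interval 76.1 to 1077 CPM). The 0 in Control 1 allowed up to 428 CPM. Pooled over the libraries of a group, CHTOP stood at 262 CPM in Chtop (95% exact interval 231 to 295), 102 in Alyref (85.3 to 121), 104 in Nxf1 (71.4 to 147) and 33.1 in Control (6.83 to 96.7). In the order of pooled levels, Chtop was apart from the next group, while the intervals of Nxf1 and Alyref overlapped each other and the interval of Control overlapped both. Among protein-coding genes with tags, CHTOP ranked 415 of 14967 by tags in Chtop, 1437 of 13692 in Nxf1 and 2179 of 15215 in Alyref.

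**Figure D1:**
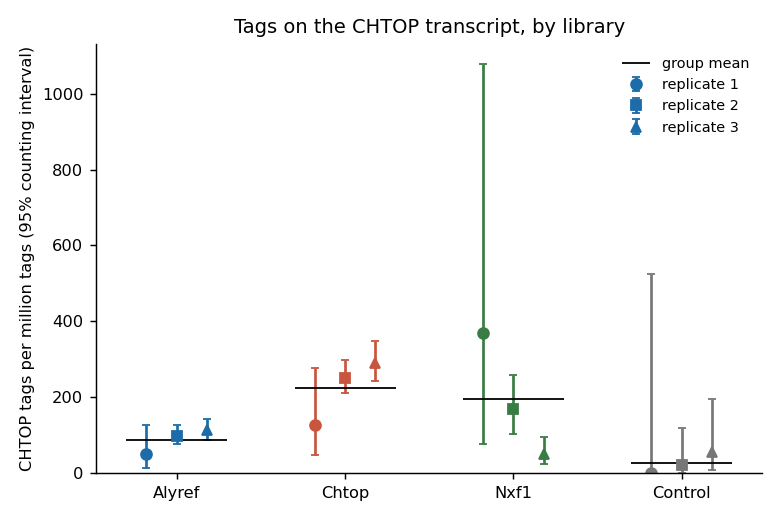
CHTOP level in CPM (vertical axis) in each library of the 4 groups; bars are 95% exact counting intervals and lines are group means. The Chtop libraries sit at 128 to 291 CPM, above Alyref at 49.2 to 113 and Control at 0 to 54.1, while the Nxf1 libraries spread from 50.2 to 369.

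The gene-level comparisons asked which factor was recovered on CHTOP above the FLAG-only background and above the other factors. The edgeR quasi-likelihood test ran on 3369 genes with Benjamini-Hochberg adjustment over all of them, and a gene was called at an adjusted p under 0.05. CHTOP was higher in Chtop than in Control by 2.82 on the log2 scale (SE 0.71, adjusted p = 0.00955), a comparison in which 8.9% of genes were called higher and 14.5% in either direction. It was higher in Chtop than in Alyref by 1.46 (SE 0.30, adjusted p = 0.00111), where 9.97% of genes were called higher and 15.9% in either direction. It was higher in Chtop than in Nxf1 by 1.00 (SE 0.38, adjusted p = 0.0472), where 15% were called higher and 25.6% in either direction. The medians of all genes in these comparisons were 0.16, -0.02 and 0.04. CHTOP did not pass for Alyref against Control (1.35, SE 0.83, adjusted p = 0.441, 0.119% of genes called), Nxf1 against Control (1.82, SE 0.85, adjusted p = 0.676, 0.0297% called) or Alyref against Nxf1 (-0.46, SE 0.40, adjusted p = 0.571, 4.81% called). The 3 comparisons with the Control share its 3 libraries, and the comparisons between factors share libraries as well. Within lane sets, Chtop exceeded Alyref and Control in 3 of 3, and exceeded Nxf1 in the sets of replicates 2 and 3.

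The difference between Chtop and Nxf1 lay at the edge of the threshold and was lost without Nxf1 replicate 3 (0.43, adjusted p = 0.559), without Chtop replicate 3 (0.78), without Alyref replicate 2 (0.91) or without Alyref replicate 3 (0.92). That between Chtop and Control was lost without Control replicate 2 (2.46, adjusted p = 0.095), that between Chtop and Alyref without Alyref replicate 2 (1.37, adjusted p = 0.0641). The DESeq2 Wald test called none of the 3 (adjusted p = 0.0634 against Control, 0.0769 against Alyref and 0.384 against Nxf1). Tags in coding exons were then left out of every protein-coding gene, in an edgeR fit of 2012 genes added after seeing the data. CHTOP was higher in Chtop by 3.49 against Control (SE 0.80, adjusted p = 7.9e-04), 1.49 against Alyref (SE 0.34, adjusted p = 7.5e-04) and 1.27 against Nxf1 (SE 0.42, adjusted p = 0.0209). CHTOP was thus also called higher in Chtop on its UTRs and introns. This fit covered other genes than the fit of whole genes, so the sizes are not directly comparable. It was not repeated with DESeq2 or with libraries left out. Whether the transgene contributed to the higher level was not tested.

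Tags on CHTOP were concentrated in the exons, the 3′ UTR and the second intron. The 3′ UTR in exon 6 (chr1:153617743-153618782, 1040 nt) had 0, 15 and 27 tags in Alyref libraries 1 to 3, 3, 45 and 43 in Chtop, 2, 5 and 2 in Nxf1, and 0 in each Control. Intron 2 (chr1:153609130-153610770, 1641 nt) had 0, 11 and 12 tags in Alyref, 1, 39 and 38 in Chtop, 0, 7 and 2 in Nxf1, and 0 in each Control. These parts made up most of the tags in Chtop libraries 2 and 3. The 5 coding segments together (744 nt) had 25 tags in Alyref, 49 in Chtop, 6 in Nxf1 and 1 in Control, and the 5′ UTR had 13, 19, 3 and 1.

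**Figure D2:**
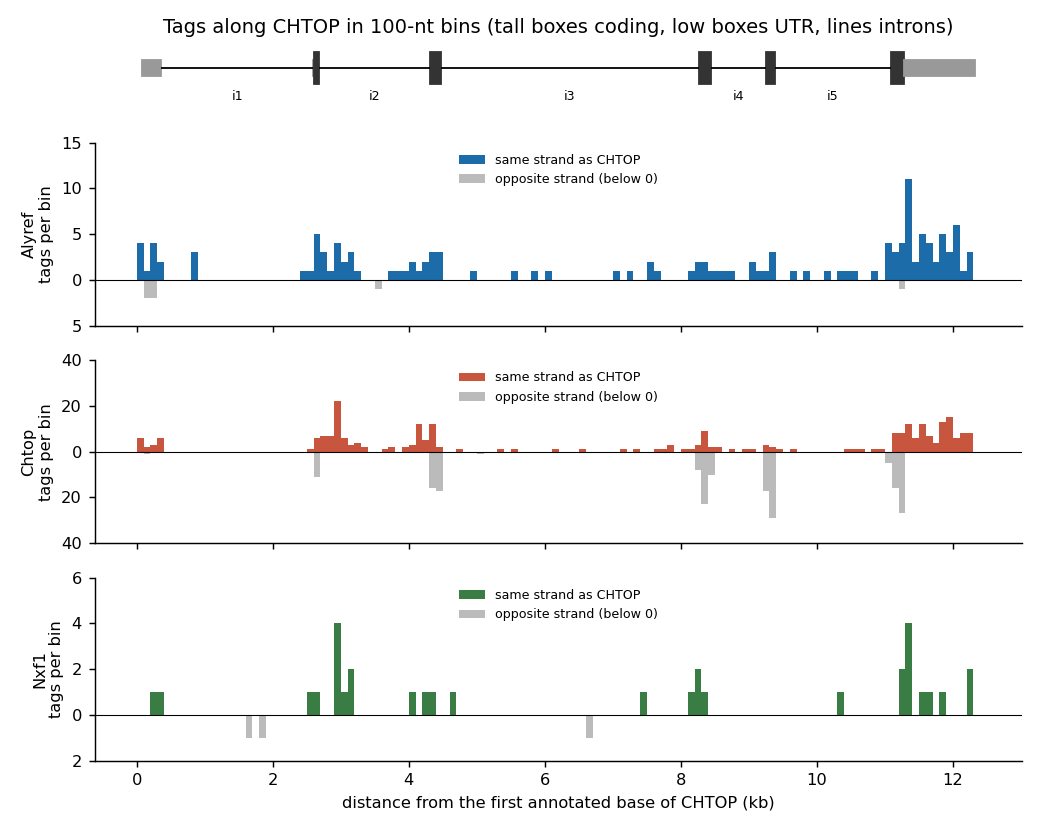
Tags in 100-nt bins (vertical axes, 3 libraries pooled) against distance in kb from the first annotated base of CHTOP, for Alyref, Chtop and Nxf1; grey bars below 0 are tags on the opposite strand and the gene model is drawn on top. Same-strand tags gather at intron 2 (i2) and the last exon, and opposite-strand tags in the Chtop libraries lie over the coding exons.

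Per kb, Chtop tags stood at 87.5 on the 3′ UTR, 65.9 on the coding segments, 47.5 on intron 2 and 3.40 on the other 4 introns together. In Alyref these densities were 40.4, 33.6, 14.0 and 3.64 tags per kb, and in Nxf1 8.65, 8.06, 5.48 and 0.587. Intron 2 thus had 14.0 times the density of the other introns in Chtop, 3.85 times in Alyref and 9.35 times in Nxf1. The other 4 introns, 8521 nt, had 31 tags in Alyref, 29 in Chtop, 5 in Nxf1 and 1 in Control. Among 173508 introns of canonical protein-coding transcripts of at least 100 nt, intron 2 of CHTOP ranked 30 by tag density in Chtop, 682 in Nxf1 and 1092 in Alyref. The CHTOP 3′ UTR ranked 170, 306 and 330 of 18087. RNA abundance and binding per RNA cannot be told apart in these ranks.

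**Figure D3:**
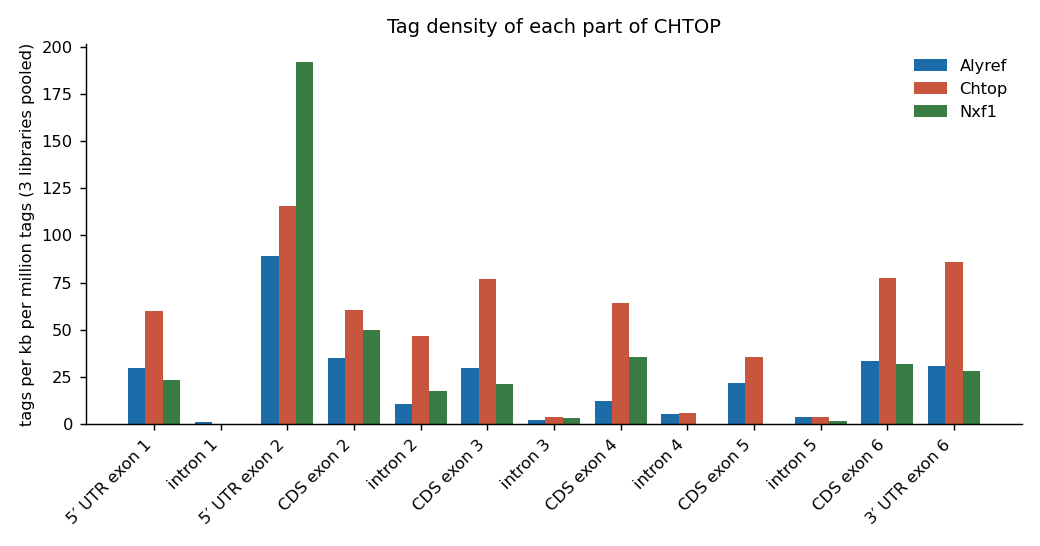
Tag density of each part of the canonical CHTOP transcript in order along the gene, as CPM per kb with the 3 libraries of a group pooled, so that no error is drawn. Intron 2 stands above the other 4 introns in all 3 factors; the bars of 5′ UTR exon 2, which is 17 nt long, rest on 1 or 2 tags per factor.

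Part by part, intron 2 and the 3′ UTR were the CHTOP parts called higher in Chtop than in Alyref. Of 45000 parts with at least 10 tags, 10 of the 13 CHTOP parts were tested. Intron 2 was higher in Chtop than in Alyref by 2.20 on the log2 scale (SE 0.56, adjusted p = 0.0114) and the 3′ UTR by 1.66 (SE 0.53, adjusted p = 0.0414), so that 2 of 10 CHTOP parts were called higher against 4.02% of all parts (5.83% in either direction). Coding exon 4 differed by 2.22 and did not pass (adjusted p = 0.108). All 10 tested parts differed in the same direction, the least in intron 5 (0.0767). The 2 called parts were those with the most tags (142 in the 3′ UTR and 110 in intron 2). Both calls were lost without Alyref replicate 2, Alyref replicate 3 or Chtop replicate 3, and with the replicate number as a block (adjusted p = 0.0793 for intron 2 and 0.149 for the 3′ UTR) or without a filter on low counts (0.0658 and 0.216). Without Alyref replicate 1 the 3′ UTR was lost, and the DESeq2 Wald test gave it an adjusted p of 0.0772 and gave intron 2 none.

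Against Nxf1, intron 2 differed by 1.08 in Chtop (SE 0.68, adjusted p = 0.318) and the 3′ UTR by 1.26 (SE 0.70, adjusted p = 0.275). edgeR called 0 CHTOP parts there, with 0 at an unadjusted p under 0.05 and 3.34% of all parts called. Alyref against Nxf1 gave 0 CHTOP parts, again with 0 at the unadjusted threshold, and 0.26% of all parts were called. Against Control, edgeR called 0 CHTOP parts in Chtop (0.684% of parts called), 0 in Alyref (0.211%) and 0 in Nxf1 (0.0111%), with 2, 0 and 1 at an unadjusted p under 0.05. DESeq2 called intron 2 and the 3′ UTR in Chtop against Control, the 2 parts to which it gave an adjusted p there. It called 0 of 2 such parts in Chtop against Nxf1, and 0 of 10 in Alyref or Nxf1 against Control and in Alyref against Nxf1. With 0 Control tags and a floor of 3 counts over the group (33.1 CPM), intron 2 was at least 2.32-fold higher in Chtop than in Control and the 3′ UTR at least 2.71-fold higher. Alyref and Nxf1 stood below that floor on both parts, so that no fold over Control was given.

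Within intron 2, tags were not spread evenly. Cut into 4 successive stretches of equal length, it held 41, 10, 3 and 24 tags in Chtop, 11, 4, 2 and 6 in Alyref, and 5, 2, 0 and 2 in Nxf1. The first stretch, which contains the window printed above, thus held the most tags in each factor, and the third the fewest. The last 211 nt of the intron (chr1:153610560-153610770) are exon in isoform CHTOP-202, and they held 18 of 78 intron 2 tags in Chtop, 3 of 23 in Alyref and 1 of 9 in Nxf1. Of 8 annotated CHTOP isoforms, 1 (CHTOP-206) keeps intron 2. Tags on pre-mRNA and tags on a retained intron cannot be told apart in these libraries. The 4 equal stretches of the 3′ UTR held 23, 19, 33 and 16 tags in Chtop, 16, 8, 14 and 4 in Alyref, and 5, 1, 1 and 2 in Nxf1, a more even spread than in intron 2.

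The distribution along CHTOP was then compared apart from its level. No CHTOP part had a changed usage, that is a change relative to the other parts of the gene, in the edgeR test for 42604 parts. For Chtop against Alyref, intron 2 usage differed by 0.68 on the log2 scale (adjusted p = 0.54), 0 CHTOP parts passed at an unadjusted p under 0.05, and 0.929% of all parts were called. The counts were also 0 for Chtop against Nxf1 (1.34% of parts called), Alyref against Nxf1 (0.0657%), Alyref against Control (0.0493%), Chtop against Control (0.211%) and Nxf1 against Control (0%). At the unadjusted threshold the count was 1 in the last of these (coding exon 5) and 0 in the others. The rise of intron 2 in Chtop against Alyref was thus not separated from the rise of the gene as a whole.

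Shares were computed in the 7 libraries with at least 5 CHTOP tags. The share of CHTOP tags in the second intron was 16.7%, 28.9% and 30.4% in Chtop libraries 1 to 3 (25.3% ± 7.53, SD, n = 3), 17.7% and 17.6% in Alyref 2 and 3 (17.7% ± 0.0671, n = 2) and 35.0% and 22.2% in Nxf1 2 and 3 (28.6% ± 9.04, n = 2). Chtop 1, which had 6 CHTOP tags, lay below the Alyref libraries and the other Chtop libraries above them. Pooled, the share was 29.3% in Chtop (95% Wilson interval 24.2 to 35.1), 17.2% in Alyref (11.7 to 24.4) and 28.1% in Nxf1 (15.6 to 45.4). The share in the 3′ UTR was 39.2% ± 9.33 in Chtop (n = 3), 31.9% ± 11.0 in Alyref (n = 2) and 23.6% ± 1.96 in Nxf1 (n = 2), and the pooled shares were 34.2%, 31.3% and 28.1%. Coding exons took 12.6% ± 11.3, 16.5% ± 10.9 and 21.7% ± 16.5. The mean for Chtop rested on 0 of 6 tags in Chtop 1 and was 18.9% without it, and the pooled coding shares were 18.4% in Chtop, 18.7% in Alyref and 18.8% in Nxf1. All introns together took 32.7% ± 14.0, 41.4% ± 3.82 and 41.1% ± 26.7.

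**Figure D4:**
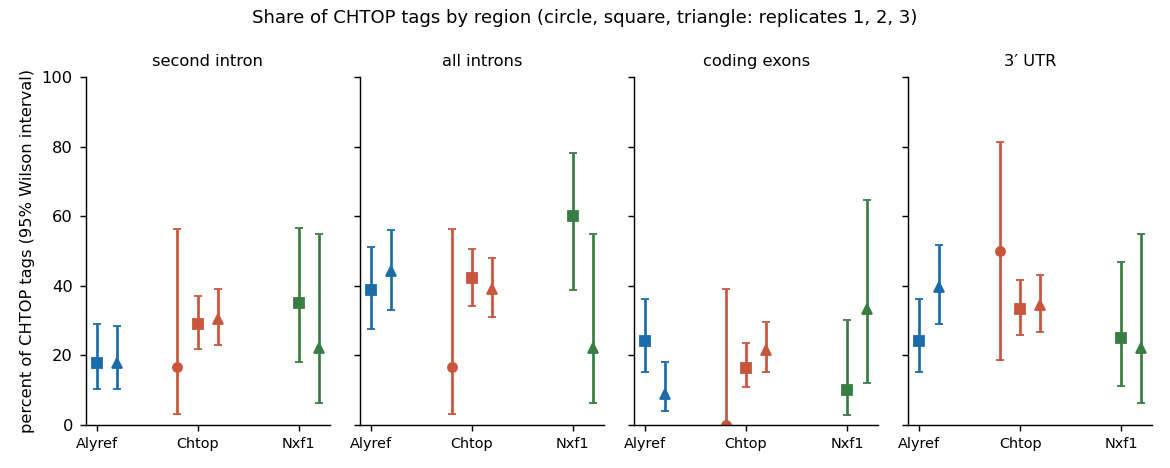
Percent of CHTOP tags in the second intron, all introns, coding exons and 3′ UTR (vertical axis) in each library with at least 5 CHTOP tags; symbols mark the replicate and bars are 95% Wilson intervals. The second intron takes 17.6% to 17.7% in Alyref and 28.9% to 30.4% in Chtop 2 and 3, with Chtop 1 at 16.7% on 6 tags.

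None of the 12 differences in share between a factor and the other factors passed the two-sided exact permutation test over libraries. The largest difference for Chtop was in the 3′ UTR, where its mean exceeded theirs by 11.5 percentage points (exact permutation p = 0.114, adjusted over the 12 p = 0.833). It was 6.09 points without Chtop 1, where 3 of 6 tags lay in the 3′ UTR. The difference for the second intron was 2.17 points (exact permutation p = 0.686, adjusted p = 0.971) and 6.49 without that library. The smallest p this design allows before adjustment is 0.0286 for Chtop and 0.0476 for Alyref or Nxf1. Adjusted over the 12, a single difference at that smallest p would not pass. These tests therefore could not show that the shares were alike. No Control library had 5 CHTOP tags, so shares were not tested against Control.

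Past the annotated end of CHTOP, where transcripts that fail to terminate would continue, the 5 kb downstream on the same strand held 0, 1 and 1 tags in Alyref, 0, 1 and 0 in Chtop, 0, 1 and 0 in Nxf1 and 0 in Control. As a log2 ratio to CHTOP tags with 0.5 added to both, Chtop differed from the other factors by -1.33 (exact permutation p = 0.371, adjusted over 3 p = 0.557), Nxf1 by 1.80 (exact permutation p = 0.286, adjusted p = 0.557) and Alyref by -0.21 (exact permutation p = 0.952, adjusted p = 0.952). With at most 1 tag per library, a difference was not detectable at this depth.

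Uracil was the most frequent crosslinked base of CHTOP in each factor. In the Control 2 of 3 tags also lay on uracil, so this does not set the factors apart from it. Uracil took 57.5% of tags in Alyref (95% exact interval 48.6 to 66.0), 53.0% in Chtop (46.8 to 59.1) and 53.1% in Nxf1 (34.7 to 70.9), against 29.8% of the bases of the gene. In intron 2 the uracil share of tags was 55.1% in Chtop and 65.2% in Alyref, against 32.7% of its bases, and in the 3′ UTR 53.8% and 59.5%, against 34.1%. The intervals of the 3 factors overlapped. Adenine took 16.2% of Chtop tags, 6.72% of Alyref tags and 9.38% of Nxf1 tags, all under its 25.8% of the bases of the gene. The differences in adenine between factors were not tested.

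The Chtop libraries also held tags on the strand opposite to CHTOP, and these lay almost wholly over its coding exons. Tags on the minus strand over the 5 coding segments numbered 5, 77 and 84 in Chtop libraries 1 to 3, 0, 0 and 1 in Alyref, 0 in each Nxf1 and 0 in each Control. By tags, every Chtop library lay above all 9 others. The 0 in Nxf1 1 allowed up to 369 CPM and that in Control 1 up to 428, above the 106 CPM of Chtop 1. In the same Chtop libraries the sense tags over these segments numbered 0, 22 and 27. The 166 opposite-strand tags, 163 CPM when pooled (95% exact interval 140 to 190), fell on 143 of 744 coding bases with at most 2 at 1 base, and 21 bases were hit in 2 or more libraries. They were spread over all 5 coding segments, with 11, 31, 38, 43 and 43 tags in exons 2 to 6, or 169, 201, 207, 312 and 212 per kb. Outside the coding segments there were 15, of which 13 lay within 6 nt of a coding exon.

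**Figure D5:**
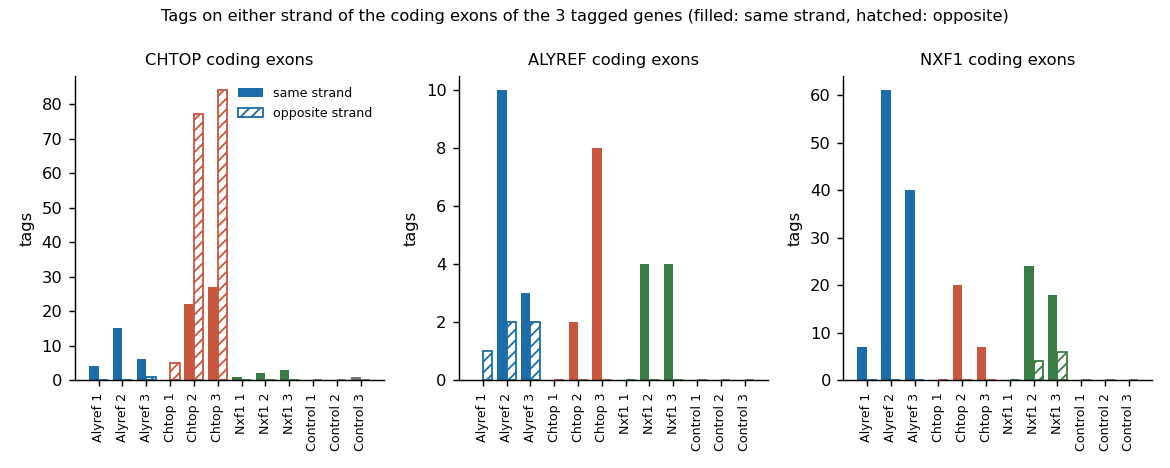
Tags on the same strand (filled) and the opposite strand (hatched) of the coding exons of CHTOP, ALYREF and NXF1 (vertical axes, tags) in each of the 12 libraries. Opposite-strand tags over CHTOP reach 5, 77 and 84 in the Chtop libraries and at most 1 elsewhere.

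Among the 57 genes with at least 10 opposite-strand coding tags, CHTOP was higher in Chtop than in Alyref by 7.04 on the log2 scale (SE 0.64, edgeR adjusted p = 4.09e-23, 5.26% of genes called higher). CHTOP met that minimum only through the Chtop libraries, and the test was added after their excess was seen. Its p-values and calls, here and under the alternatives, therefore restate that choice and are no further evidence. The calls against Control (adjusted p = 1.54e-04, 1.75% called higher) and Nxf1 (adjusted p = 3.07e-10, 1.75% called higher) rested on groups at 0. The pooled level was at least 4.94-fold higher than in Control and at least 16.7-fold higher than in Nxf1, each against a floor of 3 counts over the group, and 215 times that in Alyref (95% exact interval 38.1 to 8550). Adjusted p-values for Chtop against Alyref ran from 8.51e-24 to 0.00179 over the alternatives tried, with a call in 14 of 14. CHTOP ranked 1 of 1258 genes with such tags in the Chtop libraries, with 7.58% of all 2191, and the next gene, INTS11, had 48. Whether these tags came from the transgene was not tested.

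The other tagged genes were read in the same way. Over the NXF1 coding exons, opposite-strand tags numbered 0, 4 and 6 in the Nxf1 libraries, rank 1 of 581 genes with such tags, and 0 in all other libraries. Over ALYREF they numbered 1, 2 and 2 in the Alyref libraries, rank 37 of 1344, and 0 elsewhere. Among these 3 genes, such tags in each line were most numerous over the gene whose product was tagged, at far fewer tags than over CHTOP. Pooled, NXF1 stood at 32.6 CPM in the Nxf1 libraries, under the Control floor of 33.1 CPM. ALYREF stood at 3.80 CPM in the Alyref libraries, under the floors of Control and of Nxf1 (9.78 CPM). The values of 0 in those groups therefore do not set them apart. Same-strand tags on coding exons and 3′ UTR numbered 42 and 1 for NXF1 in the Nxf1 libraries, against 108 and 20 in Alyref and 27 and 24 in Chtop. For ALYREF they numbered 13 and 13 in Alyref, 10 and 5 in Chtop, and 8 and 6 in Nxf1.

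The other genes of the export pathway were read from the same gene fit. Of 20 genes for TREX subunits and export adaptors besides CHTOP, 5 had enough tags to be tested. Against Control 1 of 5 was higher in Chtop, RBM15, an RNA-binding protein that also acts in mRNA methylation and export, by 3.43 on the log2 scale (edgeR adjusted p = 2.21e-04), where 8.9% of all genes were called higher. RBM15 had 15, 332 and 350 tags in Chtop libraries 1 to 3, 11, 102 and 81 in Alyref, 1, 11 and 15 in Nxf1, and 1, 3 and 1 in Control. It was also the 1 of 5 higher in Chtop than in Alyref, by 2.22 (adjusted p = 2.12e-05), where 9.97% of all genes were called higher. Against Nxf1, where 15% of all genes were called higher, 3 of 5 were higher in Chtop: RBM15 by 2.63, DDX39B, the RNA helicase of TREX, by 1.28 and THOC2, the large scaffold subunit of TREX, by 1.24. NXF1 was lower in Chtop than in Nxf1 by -1.90 (edgeR adjusted p = 4.64e-04), where 356 of 3369 genes were called lower. It was lower in Alyref than in Nxf1 by -1.21 (edgeR adjusted p = 0.0310), where 61 of 3369 were called lower. The Nxf1 line carries a tagged Nxf1. The 3 calls of RBM15 and that of NXF1 in Chtop against Nxf1 held in 18 of 18 alternative settings, those of THOC2 in 17, of NXF1 in Alyref against Nxf1 in 12 and of DDX39B in 9. No member passed for Alyref or Nxf1 against Control. The medians of the 5 were 0.67 for Chtop against Control, 0.15 against Alyref and 1.24 against Nxf1, beside 0.16, -0.02 and 0.04 for all genes.

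Of 8 genes for Chtop partners, 4 were tested and 1 was called, in comparisons that called 15.9% (Chtop against Alyref) and 25.6% (Chtop against Nxf1) of all genes. PRMT1, the arginine methyltransferase that methylates Chtop, had 0, 13 and 9 tags in Chtop, 13, 75 and 45 in Alyref, 0, 15 and 13 in Nxf1, and 2, 4 and 0 in Control. It was lower in Chtop than in Alyref by -2.22 (edgeR adjusted p = 0.00191, called in 18 of 18 alternative settings) and lower than in Nxf1 by -2.29 (adjusted p = 0.00495, 17 of 18), opposite in direction to CHTOP. PRMT5, another arginine methyltransferase, had too few tags for the filter and passed in Chtop against Alyref in 9 of 18 alternatives. Of 9 genes linked to CHTOP intron retention and decay, 8 were tested, and SMG1, a kinase of nonsense-mediated decay, was higher in Chtop than in Control by 2.82 (edgeR adjusted p = 0.00115, called in 18 of 18) and than in Nxf1 by 1.34 (adjusted p = 0.0159, 15 of 18). SMG1 had 28, 612 and 566 tags in Chtop, 67, 470 and 436 in Alyref, 6, 51 and 52 in Nxf1, and 3, 9 and 1 in Control. A share of 1 in 8 stands beside 8.9% and 15% of all genes called higher in these comparisons. SMG1 also missed the threshold in Alyref against Control (2.28, edgeR adjusted p = 0.0534) and passed in 9 of 18 alternatives. The other 7 tested genes of that list were not called in the fit of all 12 libraries, but UPF1 and SMG5, which also act in nonsense-mediated decay, passed in Chtop against Control without Alyref replicate 1.

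The genes whose level pattern over the 12 libraries was most like that of CHTOP, by Pearson's r of log2(CPM + 1) among 3261 genes with at least 200 tags, were DCUN1D4 (0.989), FEM1B (0.976), GGA3 (0.970), PURB (0.961) and WDR6 (0.960). DCUN1D4 had 94 tags in Alyref, 166 in Chtop, 21 in Nxf1 and 3 in Control. All 12 points share their libraries and depths with CHTOP, so these values are a description. CHTOP had 0 tags in Control 1, the shallowest library, and that point lies far below the others on the log2 scale. How much it sets r was not tested.

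The genes around CHTOP had few tags. S100A13, on the minus strand 2621 nt upstream, had 4 tags in Alyref, 2 in Chtop, 0 in Nxf1 and 1 in Control, and S100A1, upstream on the same strand, had 1 in Alyref and 0 elsewhere. A pair of lncRNAs on the minus strand overlap the first exon of CHTOP and each other, and they had 0 tags in sequence that belongs to only 1 of them. On the minus strand over that exon, where their tags cannot be told apart, Alyref had 4 tags and Chtop 1. SNAPIN, the next gene downstream on the same strand at 12396 nt, had 13, 16, 2 and 0.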

How the data were processed

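The deposited values were counts of deduplicated iCLIP tags per crosslinked base, in 1 table per library. The authors removed phiX reads with Bowtie 1.1.2, moved random barcodes with UMI-tools 0.5.3, kept reads above 15 nt with Reaper, aligned them to hg19 with STAR 2.4.2a and Ensembl 75 junctions keeping unique mappers, merged the 32 lane runs into 12 libraries and collapsed duplicates by barcode. Unique mapping lowers counts in repeated sequence.

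Tags were assigned by strand to GENCODE 44 on GRCh37, and tags in more than 1 gene were left out of gene counts. Libraries held 7017 to 631704 tags. Tests used edgeR 4.0.16 (quasi-likelihood, TMM, filterByExpr, all 12 libraries in 1 fit of 6 contrasts, adjusted p under 0.05), DESeq2 1.42.0 as an alternative and R 4.3.3. Exact permutation tests used scipy 1.17.1. The planned filter left 0 CHTOP parts, so parts with at least 10 tags were tested, a change made after seeing the data, as were the opposite-strand test and the fit without coding exons. Methods were tested on simulated data. Named genes were CHTOP with its parts, its 5 most tagged bases, the listed genes, the 5 genes most alike, the tagged genes and adjoining genes. Members and lists were chosen with earlier results of these data known. Unused per-sample columns numbered 0.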

Additional observations from a re-analysis of the deposited data

Results flagged for a closer look

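Tags on the strand opposite to the coding exons of CHTOP lie outside the main measurement, which counted tags on the strand of the gene. They stood at 163 CPM pooled over the Chtop libraries, above the Control, which had 0 such tags and a floor of 33.1 CPM. Chtop libraries 1 to 3 had 5, 77 and 84 of them.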

How the results depend on the processing

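Over all results and alternatives computed, 915 of 1022 values kept their direction and their side of the threshold or stayed within the spread, 25 lost the threshold, 28 changed direction and 54 moved. Where no cause is given, the cause was not tested. For CHTOP in Chtop against Control, the DESeq2 Wald test gave 2.60, and leaving out 1 library gave 2.46 to 3.91. For Chtop against Alyref, DESeq2 gave 1.47 and leaving out 1 library 1.24 to 1.63. For Chtop against Nxf1, the call was lost with DESeq2 size factors (0.90), no filter (1.27), tags in more than 1 gene kept (1.03) and the DESeq2 Wald test (0.74), and leaving out 1 library gave 0.43 to 1.58. The replicate block gave 1.00 (adjusted p = 0.0542) there and left 0 of the 2 CHTOP parts called in Chtop against Alyref. Same-numbered libraries had correlated deviations of -0.147 to 0.240, with 5 of 18 over 0.1. Libraries of different numbers were not compared in this way, so these values do not settle whether a block is needed. The main fits did not take the numbers as pairs. Alyref against Nxf1 ran from -1.05 to 0.12 when 1 library was left out. Of CHTOP parts, the DESeq2 Wald test called 2 in Chtop against Control, no filter called 0 in Chtop against Alyref, and leaving out 1 library 0 to 2. Of TREX and adaptor genes, no filter and tags in more than 1 gene kept called 2 each in Chtop against Control, and for Alyref against Nxf1 the replicate block called 2 and the DESeq2 Wald test 0. Leaving out 1 library gave 1 to 2 in Chtop against Control and against Alyref, 2 to 4 against Nxf1 and 0 to 3 in Alyref against Nxf1. Of partner genes, no filter called 2 in Chtop against Alyref, and leaving out 1 library gave 1 to 2 there and 0 to 2 against Nxf1. Of intron retention genes, no filter, the replicate block and the DESeq2 Wald test called 1 each in Alyref against Control, and leaving out 1 library gave 0 to 1 there, 1 to 3 in Chtop against Control and 0 to 1 in Chtop against Nxf1. Intron 2 changed direction when 1 library was left out in usage for Chtop against Nxf1 (-0.10 to 0.77), in tags for Alyref against Nxf1 (-1.79 to 0.21) and in usage there (-0.78 to 0.0814). So did the 3′ UTR in usage for Chtop against Nxf1 (-0.10 to 0.54), in tags for Alyref against Nxf1 (-1.17 to 0.00855) and in usage there (-0.36 to 0.41, and -0.0529 under the replicate block). Without the minimum of 5 tags, share differences from the other factors changed direction for introns (-2.44 points in Alyref, 5.19 in Chtop and -2.75 in Nxf1) and, in Nxf1, for coding exons (-2.93) and the 3′ UTR (7.69). Leaving out 1 library gave -14.0 to 23.8 points for introns in Nxf1, -0.375 to 6.49 for the second intron in Chtop, -0.0467 to 12.7 for it in Nxf1, -7.42 to 7.95 and -4.18 to 19.2 for coding exons in Alyref and Nxf1, and -8.80 to 6.71 for the 3′ UTR in Alyref. Past the CHTOP end it gave -0.89 to 0.18 (log2) in Alyref. Opposite-strand coding tags in Chtop against Alyref kept their call in 14 of 14 alternatives, added after seeing the data. Depth limits the Control most: 90623 tags in all put its floor at 33.1 CPM.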
